A study of Mus musculus with 6 samples.

Results

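The lungs of DBA mice exposed to cigarette smoke were compared with the lungs of unexposed DBA mice, using the 2 arrays titled as DBA smoked and DBA control among the 6 arrays of the series. The other 4 arrays hold the smoked and control lungs of the C57 and ICR strains, again with 1 array a group. Smoked mice received the smoke of 3 cigarettes a day on 5 days a week for 4 weeks, and controls are labelled as normal lung. Strains are named as in the labels, with no substrain, and the labels used here give no age, sex or time between the last exposure and sampling. All titles carry the number 1, and the labels do not state if the RNA of 1 mouse or of several was hybridised. With 1 array a side there is no estimate of the spread between mice, so every difference below describes these 2 arrays and none was tested.

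Cigarette smoke carries polycyclic aromatic hydrocarbons, which bind the aryl hydrocarbon receptor (AhR), a cytosolic receptor that moves to the nucleus, pairs with ARNT and turns on P450 enzymes such as Cyp1a1. It also carries reactive aldehydes and oxidants, which release the transcription factor NRF2 from KEAP1 and thereby raise glutathione and NADPH-dependent enzymes. Inhaled smoke is further known to draw neutrophils and macrophages into the lung. A lung sample holds alveolar epithelium, airway epithelium, endothelium, fibroblasts, muscle of vessels and airways, resident and circulating leukocytes, and whatever neighbouring tissue is dissected with it.

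The deposited values are probe set intensities on a linear scale. After 8.05 was added to each, log2 values were taken and quantile normalized over the 6 arrays, and they are given as the log2 difference of smoked minus control, so that 1 is a 2-fold higher and -1 a 2-fold lower value on the smoked array. Differences of genes with an intensity below 8.05 on either array depend on that constant. Each of 8251 genes was represented by 1 probe set. The median deposited intensity was 85.0 on the DBA smoked array and 68.9 on the DBA control array, against 26.0 to 60.6 on the other arrays. The 3'/5' ratios of the control probe sets were 1.66 on the DBA smoked array and 1.46 on the DBA control array for beta-actin, and 0.952 and 0.967 in the same order for Gapdh. On the ICR smoked array they were higher, at 4.75 for beta-actin and 2.39 for Gapdh. For beta-actin the ICR control array stood at 1.63, and the C57 smoked and C57 control arrays at 2.51 and 2.75. On the ICR smoked array 28.7% of probe sets read below 8.05, against 14.8% on the DBA smoked array. The lung identity of both arrays was clear from Sftpc, the surfactant protein C gene of alveolar type II cells, at 10076 and 10579, and from Scgb1a1, the club cell secretoglobin, at 10324 and 9625, smoked before control.

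The 2 DBA arrays were close over most probe sets, with a correlation of 0.969 across 12422 probe sets, which are not independent replicates. Of these probe sets, 81.5% differed by less than 0.5 in either direction, and the 1st and 99th percentiles of the difference were -1.51 and 1.16. At least a 2-fold difference was found for 192 probe sets that were higher on the smoked array (1.55% of all) and 328 that were lower (2.64%). This split depended on the scaling, since without scaling, where the median difference of all probe sets was 0.25, 469 were higher and 266 lower, and with both arrays shifted to a common median 208 were higher and 484 lower. By gene, 132 of 8251 were at least 2-fold higher (1.6%) and 212 at least 2-fold lower (2.57%). These shares are the background for the gene groups below. Of the 132 higher genes, 22 belonged to the list of hepatocyte genes and 8 to the lists of AhR targets, NRF2 targets and aldehyde enzymes. Of the 212 lower genes, 20 belonged to the 3 neutrophil lists and 19 were immunoglobulin genes. The larger part of both sets, 94 higher and 139 lower genes, was in none of these or the other lists. Only 34 of the 132 higher genes had a mean signal above the 40th percentile of all probe sets. This compares with 125 of the 212 lower genes and 5735 of all 8251 genes. On the lower of the 2 DBA arrays, 59 of the 132 higher and 31 of the 212 lower genes read below the added constant.

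**Figure D1:**
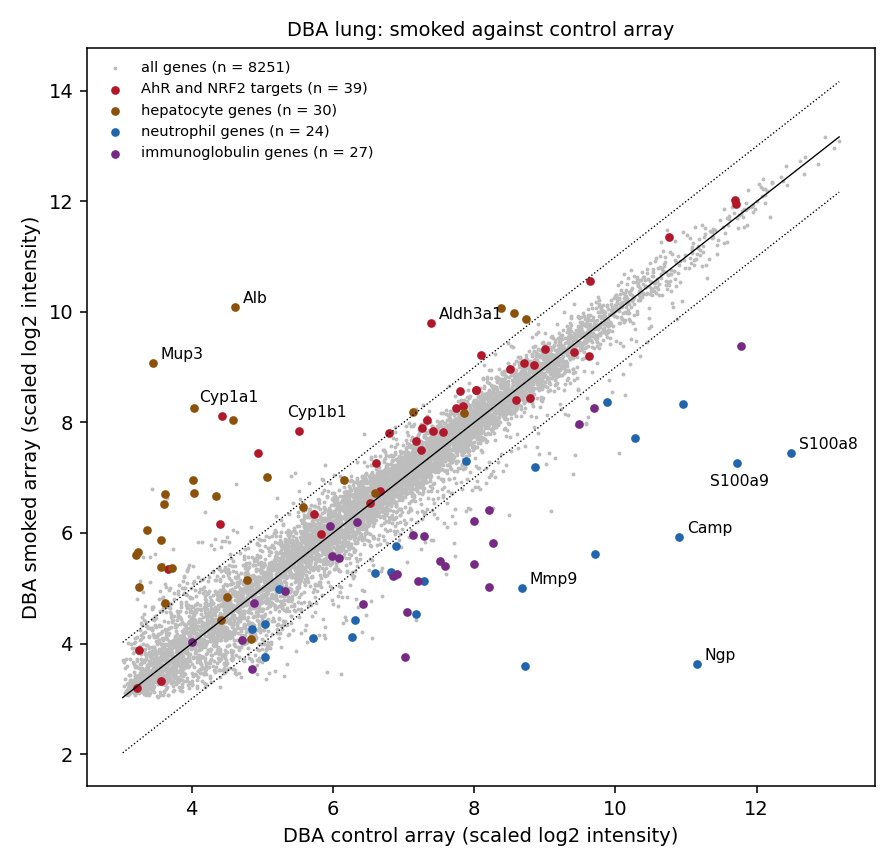
Scaled log2 intensity of 8251 genes on the DBA smoked array (vertical axis) against the DBA control array (horizontal axis), 1 point a gene, with the line of equal values and dotted lines at a 2-fold difference. The xenobiotic genes Cyp1a1, Cyp1b1 and Aldh3a1 and 22 of the 30 hepatocyte genes lie above the upper dotted line, and 20 of the 24 neutrophil genes and 19 of the 27 immunoglobulin genes below the lower one.

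Cyp1a1, Cyp1b1 and Aldh3a1, whose enzymes metabolise components of smoke, were more than 2-fold higher on the DBA smoked array. Of 11 measured genes listed as AhR targets, 5 were at least 2-fold higher on the DBA smoked array and none at least 2-fold lower, with a median difference of 0.37 against 0.03 over all genes. The 5 were Cyp1a1, Cyp1b1, Aldh3a1, Nqo1 and Cyp1a2. With the filter on low signal, which Cyp1a2 did not pass, 4 were at least 2-fold higher. Nqo1 is counted again among the NRF2 targets below. Cyp1a1, the P450 that oxidizes polycyclic aromatic hydrocarbons, read 385 on the DBA smoked array and 16.9 on the DBA control array, a difference of 3.69. Its intensity was also high on the other smoked arrays, at 2552 against 58.8 in C57 and 368 against 36.1 in ICR. Cyp1b1, a related P450 of mesenchymal cells, read 319 in DBA smoked and 47.1 in DBA control lung, a difference of 2.33. Aldh3a1, an aldehyde dehydrogenase that removes lipid aldehydes, read 1208 in DBA smoked and 188 in DBA control lung, a difference of 2.40. Its difference in DBA stood beside 1.42 in C57 and 1.80 in ICR.

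The sequence upstream of the start of 3 of these genes is shown because the core of the site bound by AhR with ARNT, GCGTG, can be looked for in it. Each is the 250 bases before the annotated start in RefSeq (GRCm38.p6), 5′ to 3′ on the strand of the gene, with matches to GCGTG, or to CACGC where the match lies on the other strand, in capitals. Cyp1a1 lies on the plus strand at chr9:57697363-57697612, Cyp1b1 on the minus strand at chr17:79715062-79715311, and Nqo1 on the minus strand at chr8:107403206-107403455. Aldh3a1 had no entry.
Cyp1a1: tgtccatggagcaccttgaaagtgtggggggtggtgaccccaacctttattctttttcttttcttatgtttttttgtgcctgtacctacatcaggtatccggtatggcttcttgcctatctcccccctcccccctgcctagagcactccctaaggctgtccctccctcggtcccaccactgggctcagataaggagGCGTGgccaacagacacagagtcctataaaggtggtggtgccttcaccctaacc
Cyp1b1: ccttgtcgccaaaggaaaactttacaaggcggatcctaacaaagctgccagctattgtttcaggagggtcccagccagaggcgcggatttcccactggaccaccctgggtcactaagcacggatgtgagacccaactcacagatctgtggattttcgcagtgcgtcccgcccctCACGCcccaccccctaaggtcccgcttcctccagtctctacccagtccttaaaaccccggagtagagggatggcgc
Nqo1: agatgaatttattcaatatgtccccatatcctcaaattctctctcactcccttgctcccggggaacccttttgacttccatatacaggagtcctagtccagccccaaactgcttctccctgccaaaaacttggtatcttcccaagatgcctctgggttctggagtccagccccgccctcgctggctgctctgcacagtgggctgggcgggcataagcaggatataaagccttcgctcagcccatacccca
Counting the last base of the window as -1, the match begins at -54 in Cyp1a1 and at -76 in Cyp1b1, and the Nqo1 window holds none. GCGTG was present on either strand in 28.2% of 32851 mouse promoter windows of this length. It was present in 5 of the 9 windows of AhR-list genes, 1 window a gene, and in 17 of the 32 windows of NRF2-list genes. Those 32 windows belong to 25 genes, of which 14 had a match in at least 1 window. The core of the antioxidant response element bound by NRF2 was searched as TGACNNNGC on both strands. It was present in 10.2% of all windows, 2 of the 9 AhR-list windows and 5 of the 32 NRF2-list windows. By gene, 5 of the 25 NRF2-list genes had a match. The 2 motifs can share bases, and they did so in 186 of the 1157 windows that held both. These matches describe letters, and binding was not measured. A match does not show that AhR binds there. Sites further upstream than 250 bases lie outside the windows, so the lack of a match in Nqo1 does not show that it has no site.

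The AhR pathway genes differed in size. Nqo1, the quinone reductase that both AhR and NRF2 are known to induce, read 95.6 in DBA smoked and 16.4 in DBA control lung, a difference of 1.76 beside 1.44 in C57 and 0.53 in ICR. Cyp1a2, a P450 best known from liver, read 50.7 on the DBA smoked and 5.83 on the DBA control array, a difference of 1.68. Its control value was below the added constant, and with a larger constant its difference was 0.84. Its differences of -0.49 in C57 and 0.10 in ICR did not go with those of Cyp1a1. Liver marker genes were high on the DBA smoked array, as described further below. The part of liver RNA in the Cyp1a2 value was not tested. The receptor Ahr itself differed by 0.26 and Nfe2l2, the gene of NRF2, by 0.37. Tiparp, a further AhR target, differed by 0.26, and Ahrr, the AhR repressor, was below the added constant on both arrays, at 2.70 in DBA smoked and 4.72 in DBA control lung. A second, dimmer probe set of Cyp1a1 differed by 0.61, and one of Cyp1b1 read under 1 on both arrays.

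NRF2 targets were shifted upward as a list, with few members past 2-fold. Of 30 measured members, 25 were higher on the DBA smoked array by any amount, against 53.3% of all genes, and 4 were at least 2-fold higher with none at least 2-fold lower. The list median was 0.50 in DBA, 0.22 in C57 and 0.14 in ICR. Several lists of lung cell genes were also mostly higher on the DBA smoked array, as described further below. The 4 past 2-fold were Ces1g, Nqo1, Gpx2 and Gsta2. Ces1g, a carboxylesterase, read 244 in DBA smoked and 28.7 in DBA control lung and differed by 2.51. Gpx2, the epithelial glutathione peroxidase, read 812 in DBA smoked and 307 in DBA control lung, a difference of 1.11 that was also 1.11 in C57. Gsta2, a glutathione S-transferase, read 308 in DBA smoked and 124 in DBA control lung, a difference of 1.01. Ces1g and Gsta2 are also abundant in liver, whose marker genes were high on the same array, as described further below, and the part of liver RNA in their values was not tested. With Ces1g, Gsta2 and 5 other liver-abundant members left out, 2 members were at least 2-fold higher, namely Nqo1 and Gpx2. This alternative was chosen after seeing the data. The 25 of 30 and the list medians above include the liver-abundant members.

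Other NRF2 targets were higher by less than 2-fold. Mgst1, a microsomal glutathione transferase, differed by 0.92, Akr1b8, an aldo-keto reductase, by 0.77, Gsta4 by 0.71 and Cbr1, a carbonyl reductase, by 0.67. The glutathione synthesis genes Gclc and Gclm differed by 0.51 and 0.49, and the thioredoxin reductase Txnrd1 by 0.47. Hmox1, haem oxygenase 1, which smoke and haem are known to induce, read 478 in DBA smoked and 491 in DBA control lung, a difference of -0.35. None of 13 other antioxidant genes was at least 2-fold different, and their median was 0.07, with catalase (Cat) at 0.51 and Sod2 at 0.07. Among 15 aldehyde and aldo-keto enzymes Aldh3a1 alone was past 2-fold, and the median of the list was 0.33. None of 10 lung P450 and flavin monooxygenase genes was past 2-fold, though 9 were higher by any amount and the median was 0.26. The abundant Cyp2f2 of club cells read 6202 in DBA smoked and 4784 in DBA control lung.

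**Figure D2:**
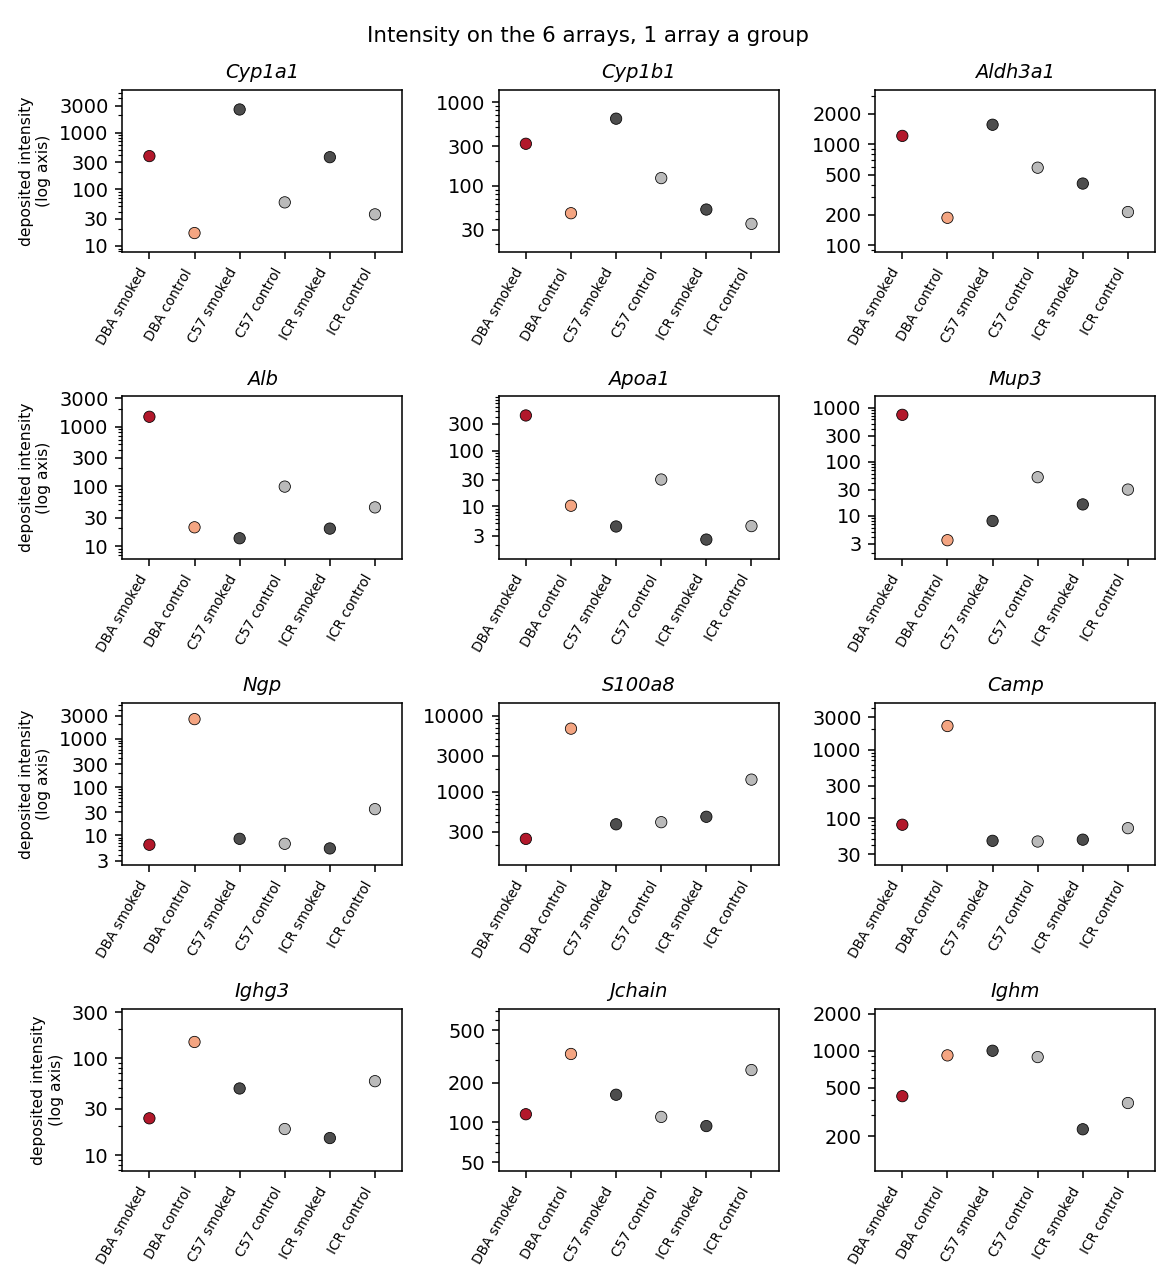
Deposited intensity (log axis) of 12 genes on each of the 6 arrays, smoked left of control within each strain, 1 point an array. Cyp1a1, Cyp1b1 and Aldh3a1 are higher on all 3 smoked arrays, Alb, Apoa1 and Mup3 are highest on the DBA smoked array, and Ngp, S100a8 and Camp are highest on the DBA control array.

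The largest differences in the other direction belonged to neutrophil genes, most of which read highest on the DBA control array. The 3 neutrophil lists had 24 measured members, of which 20 were at least 2-fold lower on the DBA smoked array, and all 24 were lower by any amount, against 46.5% of all genes. On the scaled values the DBA control array was the highest of the 6 for 21 of the 24, against 14.2% of all genes. Their summed intensity was 2628 on the DBA smoked and 23935 on the DBA control array, and lay between 2102 and 5480 on the other 4. In whole lung RNA, a smaller number of cells of a type and less RNA in each of them cannot be told apart.

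Ngp, the neutrophilic granule protein, showed the widest gap of all genes. It read 6.42 in DBA smoked and 2551 in DBA control lung, a difference of -7.51, and lay between 5.40 and 35.0 on the other 4 arrays. Camp, the cathelicidin of secondary granules, read 80.3 in DBA smoked and 2217 in DBA control lung, a difference of -4.98, while the other arrays lay between 45.7 and 71.5. Both genes thus read on the DBA smoked array about as on the C57 and ICR arrays, and the DBA control array stood apart. Of 9 genes of secondary and tertiary granules, 8 were at least 2-fold lower on the DBA smoked array, the exception being Itgb2l at -0.25. The collagenase Mmp8 read 5.89 in DBA smoked and 475 in DBA control lung, and the gelatinase Mmp9 read 36.5 and 459 in the same order. Lcn2, the siderophore-binding lipocalin, differed by -2.55, the chitinase-like Chil3 by -2.63, Pglyrp1 by -1.65 and lactoferrin (Ltf) by -1.50. Lcn2 and Ltf are also made by airway epithelium, and Chil3 by alveolar macrophages. The second probe sets of Lcn2 and Mmp9 differed less, by -0.20 and -0.83.

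The calprotectin subunits S100a8 and S100a9, which make up much of the neutrophil cytosol, were also far lower on the DBA smoked array. S100a8 read 242 in DBA smoked and 6766 in DBA control lung, a difference of -5.05, and S100a9 read 215 in DBA smoked and 4001 in DBA control lung, a difference of -4.45. For S100a8 the next highest array was the ICR control, at 1449. Of 11 surface and cytosol genes, 9 were at least 2-fold lower. Ifitm6 differed by -4.09, Ly6g, the antigen used to identify mouse neutrophils, by -2.65, the formyl peptide receptor Fpr2 by -2.16, the lectin Clec4d by -2.15 and the chemokine receptor Cxcr2 by -1.61. Csf3r, the G-CSF receptor, differed by -0.58 on its brightest probe set and by -2.56 on its second one. Il1b, the interleukin-1 beta gene, differed by -1.13. Of 4 primary granule genes 3 were at least 2-fold lower, with Prtn3 at -1.88, Elane at -1.33 and Ctsg at -1.28, and Mpo, myeloperoxidase, differed by -0.69 on the probe set that stood for it and by -3.25 on its second one.

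Chemokines did not move as one group. Of 24 cytokine and chemokine genes, 1 was at least 2-fold higher on the DBA smoked array and 4 were at least 2-fold lower, with a median of -0.18. The 1 higher gene was Cxcl5, an epithelial chemokine that attracts neutrophils through CXCR2, which read 160 in DBA smoked and 21.0 in DBA control lung. Its difference was 2.26 in DBA, 2.18 in C57 and 0.12 in ICR. The 4 lower genes were Ccl8 at -2.35, Ccl9 at -2.02, Cxcl9 at -1.50 and Il1b. Ltb4r1, the leukotriene B4 receptor of neutrophils, read 20.8 in DBA smoked and 160 in DBA control lung, a difference of -2.74.

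Few macrophage genes were past 2-fold. Of 11 monocyte and macrophage genes, Itgam at -2.45 and Ccr2 at -1.49 were at least 2-fold lower, all 11 were lower by any amount and the median was -0.53. Itgam encodes an integrin chain that neutrophils carry too, and Ccr2 marks blood-derived monocytes. Of 14 alveolar macrophage genes, Chil3 and Mmp12 were at least 2-fold lower, and 5 were higher by any amount, among them Fabp1 at 0.89 and the scavenger receptor Marco at 0.34. Fabp1 is also in the list of hepatocyte genes. Marco read below the added constant on both arrays, at 6.27 in DBA smoked and 2.03 in DBA control lung. The median of these 14 was -0.12 and ran from -0.20 to 0.17 over the alternative settings. Mmp12, the macrophage elastase known for its part in smoke-induced emphysema in mice, read 185 in DBA smoked and 745 in DBA control lung, beside differences of -0.22 in C57 and -0.08 in ICR. The complement C1q chains C1qa, C1qb and C1qc, made by macrophages, differed by -0.89, -0.90 and -1.09. Among 33 proteases and inhibitors, 6 were at least 2-fold lower and none higher. Beside Mmp8, Mmp9, Mmp12 and Elane these were Slpi, the secreted inhibitor of neutrophil elastase, at -1.61 and Adam8 at -1.46.

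Immunoglobulin genes formed a second group that was lower on the DBA smoked array. Of 27 measured genes with an immunoglobulin or J chain symbol, a set chosen after values were seen, 19 were at least 2-fold lower and none higher, with a median of -1.62 in DBA, 0.55 in C57 and -0.26 in ICR. Their summed intensity was 2938 on the DBA smoked and 9370 on the DBA control array. It was 2211 on the ICR smoked and 4467 on the ICR control array. The C57 smoked and C57 control arrays stood at 5407 and 3358. On the scaled values, 17 of the 27 were highest on the DBA control array and 17 lowest on the DBA smoked array. This compares with 14.2% and 13% of all genes. Ighm, the IgM heavy chain, read 426 in DBA smoked and 918 in DBA control lung, a difference of -1.43. Ighg3 differed by -2.47, Jchain, the chain that joins IgM and IgA into polymers, by -1.80 and Igha, the IgA heavy chain, by -1.51. A pair of variable gene probe sets was among the 15 most negative genes, Igkv6-14 at -3.18 and Igkv9-120 at -2.56. Such probe sets can read several near-identical gene copies, so their values cannot be assigned to 1 gene with certainty, and a second probe set of Igkv6-14 differed by 0.34.

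Lymphocyte genes were mostly lower on the DBA smoked array, with few past 2-fold. Lower by any amount were 8 of 12 B cell, 12 of 15 T cell and all 10 NK and cytotoxic genes. This compares with 46.5% of all genes. The list medians were -0.44, -0.30 and -0.64 in the same order. Of 12 B cell genes, Cd79b at -1.28 and Cd37 at -1.01 were at least 2-fold lower, 4 were higher by any amount, and the B cell receptor chain Cd79a differed by -0.96 and Cd24a, which epithelium expresses too, by 0.36. Of 15 T cell genes, 4 were at least 2-fold lower, among them Cd3e, a T cell receptor chain, at 20.6 in DBA smoked and 78.6 in DBA control lung, and Thy1 at -1.23. The other direction was found for 3 of the 15, with Cd5 at 0.98 and Cd247, the zeta chain of the receptor complex, at 0.72, while a second probe set of Cd247 differed by -0.89. Of 10 NK and cytotoxic genes, Prf1, the perforin gene, differed by -1.28 and the chemokine Ccl5 by -1.27. None of 17 dendritic cell and MHC class II genes was past 2-fold, yet 15 were lower by any amount and the median was -0.42. H2-Ea read 1450 in DBA smoked and 1594 in DBA control lung, and Cd74, the invariant chain, read 4314 and 5485 in the same order. No gene of 13 mast cell, basophil and eosinophil genes or of 7 erythroid genes was past 2-fold, and the alpha globin Hba-a1 differed by -0.20.

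**Figure D3:**
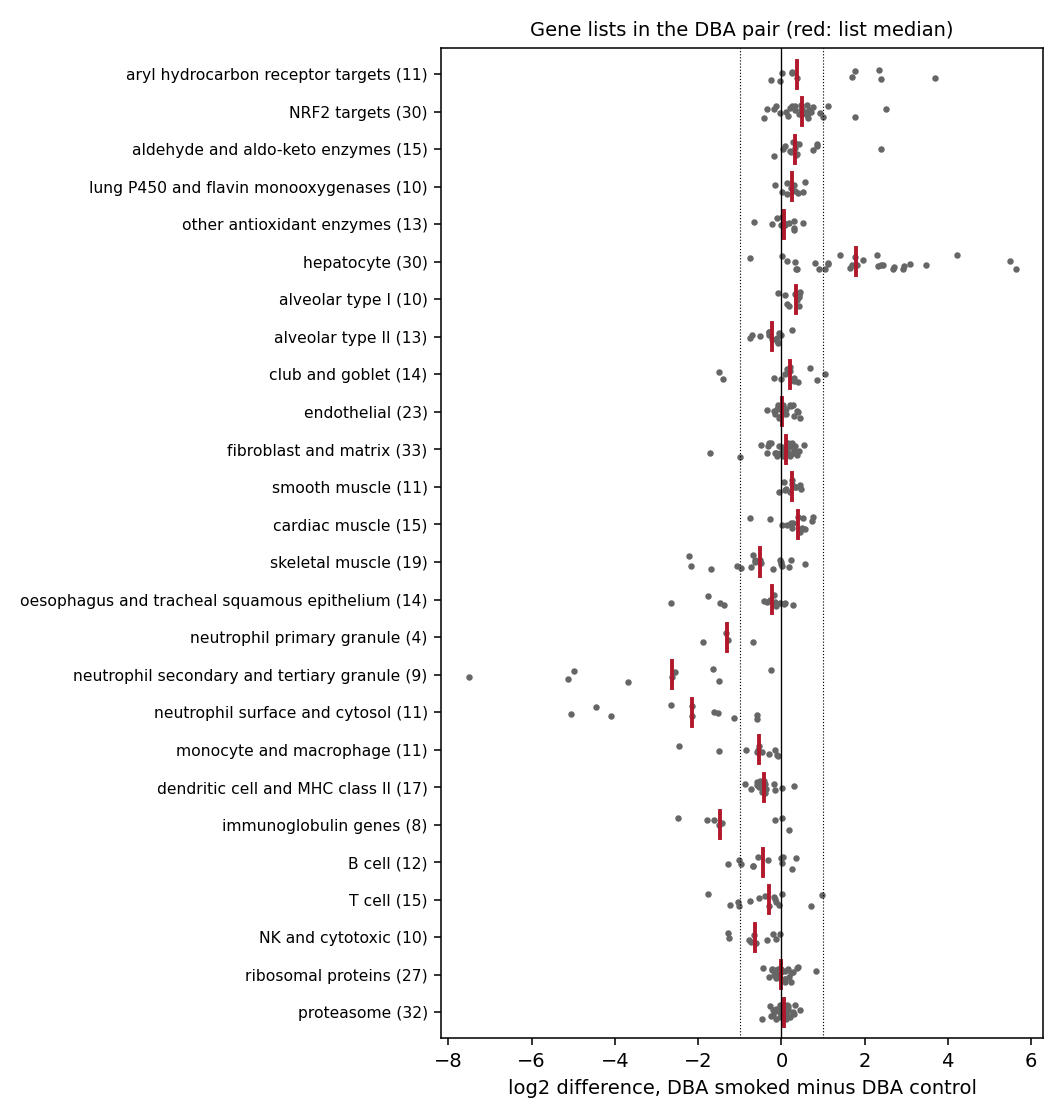
Log2 difference of DBA smoked minus DBA control for the measured members of 26 gene lists, 1 point a gene, with the number measured in brackets, a red bar at the list median and dotted lines at a 2-fold difference. The hepatocyte list has its median at 1.80 and the secondary and tertiary granule list at -2.63, while ribosomal and proteasome genes lie within 2-fold.

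Genes of hepatocytes were the largest listed group among the higher genes. Of 30 measured hepatocyte genes, 22 were at least 2-fold higher on the DBA smoked array and none at least 2-fold lower, with a median of 1.80 in DBA, -0.35 in C57 and 0.05 in ICR. On the scaled values the DBA smoked array was the highest of the 6 for 26 of the 30, against 11.1% of all genes. The summed intensity was 9747 on the DBA smoked and 2173 on the DBA control array, beside 964 on the C57 smoked and 1374 on the C57 control array. On the DBA control array 11 of the 30 genes read below the added constant, and on the DBA smoked array none did.

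Alb, the serum albumin gene, read 1455 in DBA smoked and 20.6 in DBA control lung, a difference of 5.48, and 13.5 to 98.7 on the other 4 arrays. Mup3, a major urinary protein gene, read 732 in DBA smoked and 3.51 in DBA control lung, a difference of 5.63, on a probe set that can read other members of the Mup cluster. Apoa1, the main apolipoprotein of high-density lipoprotein, read 423 in DBA smoked and 10.3 in DBA control lung, and Cyp3a11, a liver P450, read 141 in DBA smoked and 5.28 in DBA control lung. Differences above 2 were also found for the fetuin gene Ahsg at 2.94, fibrinogen alpha (Fga) at 2.91, haemopexin (Hpx) at 2.69, Ambp at 2.69, urate oxidase (Uox) at 2.40, the urea cycle enzyme Cps1 at 2.32 and tyrosine aminotransferase (Tat) at 2.31. These genes span secreted plasma proteins, lipid carriers and intracellular enzymes of the liver, and whether liver tissue entered the sample was not tested. The list held exceptions, with Apoa2 at -0.76 and Apob at 0.35.

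The alpha-1 antitrypsin genes stood out by their level in DBA lung. Serpina1e read 1439 in DBA smoked and 374 in DBA control lung, a difference of 1.69, while the other 4 arrays lay between 22.5 and 96.6. Serpina1b read 1363 in DBA smoked and 428 in DBA control lung, a difference of 1.41. The Serpina1 copies are near-identical and their probe sets may share signal. Plg, the plasminogen gene, read 176 in DBA smoked and 31.9 in DBA control lung, and its second probe set differed by 2.09 beside 1.96. Acute phase genes, which liver and lung both make, were split, with 3 of 12 at least 2-fold higher and 3 at least 2-fold lower. Hpx, Fgb at 1.77 and Orm1 at 1.33 were the higher ones and Lcn2, Saa2 at -1.37 and Saa3 at -1.14 the lower ones. Complement C9, a liver product, differed by 1.98 and the retinol carrier Rbp4 by 1.06. Arg1, an enzyme of liver and of some macrophages, differed by 1.12 in DBA and 1.40 in C57.

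Few genes of the structural cells of the lung were past 2-fold. None of 23 endothelial, 10 alveolar type I, 13 alveolar type II, 6 ciliated, 11 smooth muscle or 15 cardiac muscle genes was past 2-fold. Higher by any amount were 9 of 10 alveolar type I, 10 of 11 smooth muscle and 13 of 15 cardiac muscle genes. In the other lists, 12 of 23 endothelial, 1 of 13 alveolar type II and 2 of 6 ciliated genes were higher. Over all genes, 53.3% were higher by any amount. The list medians were 0.01 for endothelium, 0.34 for alveolar type I, -0.23 for alveolar type II, 0.25 for smooth muscle and 0.40 for cardiac muscle, which pulmonary veins carry in mice. Over the alternative settings the median ran from 0.27 to 0.67 for cardiac muscle, from 0.12 to 0.58 for alveolar type I and from -0.34 to -0.06 for alveolar type II. The type I marker Ager read 6849 in DBA smoked and 5942 in DBA control lung, and cardiac Myh6 read 1011 and 505 in the same order. Of 33 fibroblast and matrix genes, the proteoglycan gene Vcan at -1.71 was at least 2-fold lower, and the fibronectin gene Fn1 differed by -0.98.

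Airway secretory genes included a few larger differences. Of 14 club and goblet cell genes, Reg3g, an antimicrobial lectin, read 333 in DBA smoked and 131 in DBA control lung, a difference of 1.04. Clca1, a goblet cell secreted protein, read 520 in DBA smoked and 1095 in DBA control lung, a difference of -1.40, and lay between 14.4 and 36.9 on the other 4 arrays. A second, dim probe set of Clca1 read 16.8 in DBA smoked and 16.4 in DBA control lung and differed by -0.15.

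Muscle and squamous epithelium genes, which in a lung sample can come from adjoining tissue, differed in this pair as well. Of 19 skeletal muscle genes 4 were at least 2-fold lower on the DBA smoked array, with a median of -0.51 in DBA and -0.47 in C57. Acta1, skeletal actin, read 108 in DBA smoked and 404 in DBA control lung, and stood at 2468 and 3232 in C57 smoked and C57 control lung. Of 14 squamous epithelium genes, 4 were at least 2-fold lower in DBA, namely Mt4 at -2.66, Krtdap at -1.77, Krt4 at -1.48 and Krt13 at -1.39. In C57 the same 4 genes differed by 0.53, 1.72, 1.11 and 1.34. Mt4 is a metallothionein of stratified epithelium, and the widely expressed Mt1 and Mt2 differed by -0.14 and -0.23. Mt3 differed by -1.20.

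Stress and housekeeping pathways showed few differences past 2-fold. None of 24 interferon response, 21 heat shock, 14 p53 and DNA damage, 45 mitochondrial respiratory chain, 27 ribosomal protein and 32 proteasome genes was past 2-fold, and the list medians were 0.06 for interferon response, 0.25 for heat shock, 0.02 for the respiratory chain, 0.00 for ribosomal proteins and 0.06 for the proteasome. The chaperonin Hspd1 differed by 0.74 and the endoplasmic reticulum chaperone Hspa5 by 0.48. Of 34 cell cycle genes, Birc5 at -1.17 and Top2a at -1.08 were at least 2-fold lower, both with low signal. Of 14 clock genes, Npas2 at 1.20 was at least 2-fold higher and none at least 2-fold lower. By any amount 7 were higher and 7 lower, with a median of -0.01. Npas2 read 3.56 on the DBA control array, below the added constant, and differed by 0.51 with the constant at the 40th percentile. Its partner Arntl differed by 0.85, Nr1d1, which represses Arntl, by -0.81 and Dbp by -0.59.

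Genes outside these groups complete the 15 largest differences in each direction among genes above the signal filter. Fancc, a Fanconi anaemia DNA repair gene, read 176 in DBA smoked and 42.9 in DBA control lung, a difference of 1.62 that stood beside 1.76 in ICR and -0.05 in C57, and its second probe set differed by -0.01. Rangrf, a nuclear import cofactor, differed by 1.57, Mrps10, a mitochondrial ribosomal protein gene, by 1.44 and Bik, a pro-apoptotic gene, by 1.38. Rac2, a GTPase of leukocytes that activates their NADPH oxidase, read 243 in DBA smoked and 1203 in DBA control lung, a difference of -2.61. Slfn4, a myeloid Schlafen gene, differed by -2.69. Ranks among the 6 arrays were taken on the scaled values. For the 15 most positive genes, the DBA smoked array was the highest of the 6 for 7 and the DBA control array the lowest for 10. For the 15 most negative genes, the DBA control array was the highest for 14 and the DBA smoked array the lowest for 9. Both sets were chosen by the gap between the DBA arrays, which by itself places those arrays toward the extremes.

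**Figure D4:**
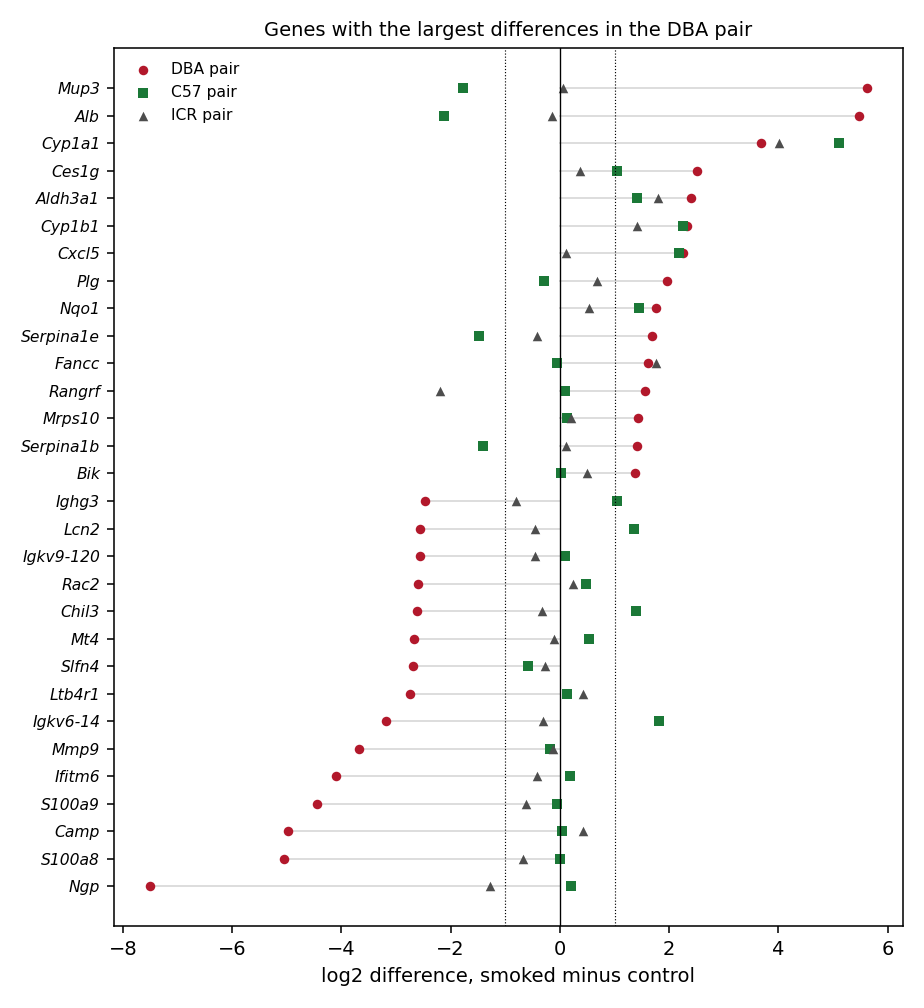
Log2 difference of smoked minus control in the DBA (circles), C57 (squares) and ICR (triangles) pairs for the 15 most positive and 15 most negative genes of the DBA pair, with dotted lines at a 2-fold difference. Cyp1a1, Aldh3a1 and Cyp1b1 lie beyond the right dotted line in every pair, and Mup3 and Alb lie on opposite sides of 0 in DBA and C57.

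The same 2-fold rule was applied to the C57 and ICR pairs, which share no array with the DBA pair although the 6 arrays were scaled together. Of the 192 probe sets at least 2-fold higher in DBA, 18 were also at least 2-fold higher in C57, which is 9.38% of the DBA set and 7.79% of the C57 set, and 19 were at least 2-fold lower there. With ICR, 21 were shared (10.9% of the DBA set and 4.35% of the ICR set) and 14 were opposite. In the C57 pair 1.86% of all probe sets were at least 2-fold higher and 1.42% lower, and in the ICR pair 3.89% higher and 4.71% lower. Counted by gene, the C57 pair had 1.59% higher and 1.26% lower, and the ICR pair 3.54% higher and 4.18% lower. Only 5 probe sets were at least 2-fold higher in all 3 pairs, namely both probe sets of Aldh3a1 and 1 each of Cyp1a1, Cyp1b1 and St8sia5, a sialyltransferase gene. Of the 328 lower probe sets, 7 were also lower in C57 and 37 higher, 28 were also lower in ICR and 19 higher, and none was lower in all 3 pairs. Whether the strains differ in any of these responses was not tested.

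Probe sets of 1 gene give the only repeated measure within the pair, and they share both RNA samples. For 883 genes with 2 probe sets above the filter, the 2 differences were apart by a median of 0.24 and by 0.66 at the 90th percentile. In 23 of them the brighter probe set was at least 2-fold different, and the second one had the same direction in 18, was also past 2-fold in 12, and had the opposite direction in 5. Pairs past 2-fold in both included Ighm, Ighg3, Il1r2, Pglyrp1, Slpi, Krt13 and Ptprc, the pan-leukocyte antigen. Where all probe sets of a gene were summarised by their median, 9 genes named above were no longer 2-fold different, with Igkv9-120 at -0.64, Igha at -0.54, Ighm at -0.90, Slpi at -0.55, Clca1 at -0.78, Krt4 at -0.95, Saa2 at -0.86, Fancc at 0.80 and Reg3g at 0.55. The spread between mice is not part of this measure.

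**Figure D5:**
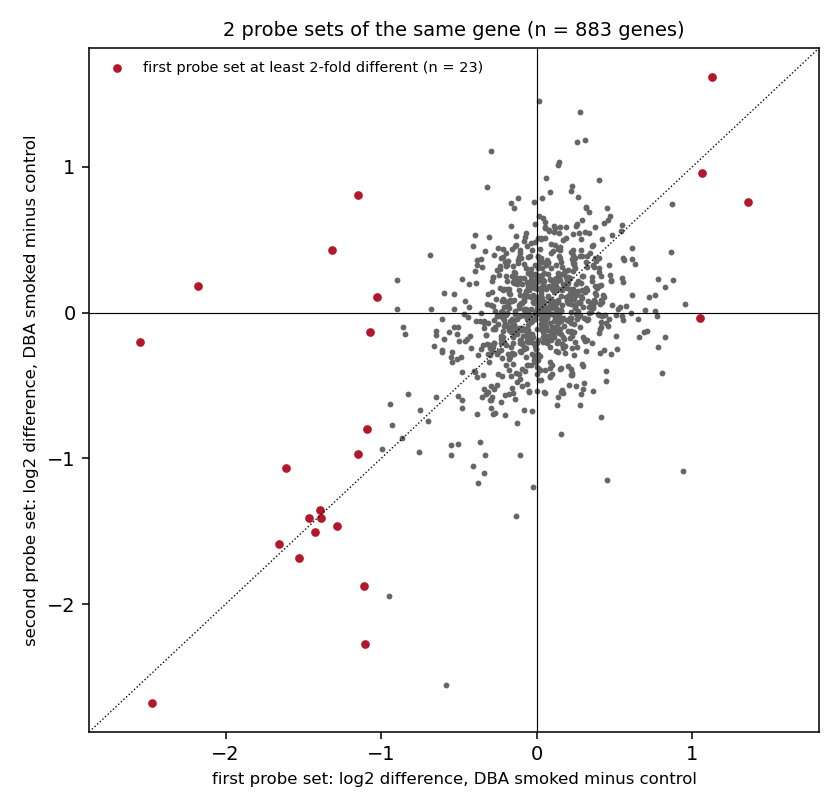
Log2 difference of DBA smoked minus DBA control on the second probe set of a gene (vertical axis) against the brighter first one (horizontal axis) for 883 genes, with a dotted line of equal values. Of the 23 red points, where the first probe set is at least 2-fold different, 18 have the same direction on the second.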

How the data were processed

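Total RNA from lung was extracted with Trizol and transcribed into biotin-labelled cRNA, per the labels' protocols, and measured on Affymetrix arrays. The deposited values are probe set intensity on a linear scale, 1 for each of 12488 probe sets on 6 arrays, with values between 0.0305 and 10579. How the authors summarised and scaled them is, in the sources used here, not given. Unscaled log2 medians of the arrays spread over 1.45. The 20th percentile of the deposited intensities, 8.05, was added before taking log2, the arrays were quantile normalized together, and 66 control probe sets were then dropped. A single symbol was available for 10855 probe sets, several for 396 and none for 1237, and RefSeq entries were found for 10839. For each gene, the brightest probe set with a single symbol on average was used.

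With 1 array a group, no test, standard error or p-value was computed, and the number of arrays limits the precision. Named genes were the 15 largest differences in each direction among genes above the 40th percentile of mean signal, up to 8 members of each of 53 gene lists, and fixed markers. A few others, among them Gclc, Gclm, Txnrd1, Hmox1, Apoa2 and Apob, were named after their values were seen. The lists and the comparison were chosen with earlier results of these data known. The calculation was tested on simulated data, with known differences placed only on brighter probe sets, so the test does not cover dim genes. Python 3.11.15, pandas 2.3.3, numpy 2.4.6 and matplotlib 3.10.9 were used. Alternatives were the added constant, the scaling, a filter on low signal, the fold threshold and the choice of probe set, and others were chosen after seeing the data.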

Additional observations from a re-analysis of the deposited data

Results flagged for a closer look

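These 15 named genes were at least 2-fold different in opposite directions in the DBA pair and in another strain's pair. With 1 array a group, the difference between strains was not tested for any of them. Against C57, Mup3 differed by 5.63 in DBA and -1.78 in C57, Alb by 5.48 in DBA and -2.13 in C57, Apoa1 by 4.23 in DBA and -1.54 in C57, Serpina1e by 1.69 in DBA and -1.49 in C57, and Serpina1b by 1.41 in DBA and -1.41 in C57. For these 5 liver genes, the C57 control array read higher than the C57 smoked array. Igkv6-14 differed by -3.18 in DBA and 1.81 in C57, Ighg3 by -2.47 in DBA and 1.04 in C57, Chil3 by -2.63 in DBA and 1.38 in C57, and Lcn2 by -2.55 in DBA and 1.36 in C57. The squamous epithelium genes Krtdap, Krt4 and Krt13 differed by -1.77, -1.48 and -1.39 in DBA, and by 1.72, 1.11 and 1.34 in C57. The topoisomerase gene Top2a differed by -1.08 in DBA and 1.46 in C57, at low signal. Against ICR, Rangrf differed by 1.57 in DBA and -2.20 in ICR, where the smoked array read 3.33, and Cd3e differed by -1.76 in DBA and 1.04 in ICR.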

How the results depend on the processing

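The number of probe sets at least 2-fold different depended on the added constant, the scaling, the filter and the threshold. With the constant at the 10th percentile 405 were higher and 558 lower, and at the 40th percentile 56 were higher and 155 lower, beside 192 and 328. Without scaling 469 were higher and 266 lower, with a common median 208 and 484, and with quantiles over the DBA arrays alone 257 and 401. With the filter on low signal 51 were higher and 176 lower, at 1.5-fold 785 and 934, and at 3-fold 64 and 115. Hepatocyte genes past 2-fold were 7 with the filter, which leaves fewer of them in, against 22. NRF2 targets were 12 at 1.5-fold and 2 at 3-fold, against 4. They were 3 without 6 liver-abundant members and 2 without 7. Over the constants and scalings they ran from 3 to 6, with 6 without scaling. Listed immunoglobulin genes were 3 at 3-fold and 2 by the median over probe sets, against 5. Of 1517 recomputed values of 194 named genes and list medians, 286 moved by more than 0.25 and none that was past 2-fold changed direction. Of 98 named genes past 2-fold, 35 were less than 2-fold different under at least 1 alternative. With the constant at the 40th percentile these were 23, among them Gsta2, Rbp4, Arg1, Reg3g, Elane, Il1b, Cd37, Thy1, Cxcr2, Cyp1a2, Rangrf and Bik. Without scaling they were 9, namely Cd79b, Cd37, Thy1, Ccl5, Il1b, Saa3, C1qc, Mt3 and Slfn2, and Cd37 and Gsta2 also fell short with a common median and with quantiles over the DBA arrays alone. Among alternatives chosen after seeing the data, scaling without the ICR smoked array gave 194 and 330, and leaving out hepatocyte, neutrophil and immunoglobulin genes gave 165 and 270. No paired analysis was possible because each group has 1 array and all share the same number. Genes near or below the added constant have no settled size of difference, and the spread between mice is unknown.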

Other observations

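The following 6 genes of leukocyte signalling and adhesion belong to no list and were picked because they were lower on the DBA smoked array, so they say nothing of such genes in general. Itgb2, the beta-2 integrin chain, read 119 in DBA smoked and 344 in DBA control lung, a difference of -1.81. Coro1a, an actin-binding protein of leukocytes, read 227 in DBA smoked and 620 in DBA control lung, and the leukocyte tetraspanin Cd53 read 211 in DBA smoked and 574 in DBA control lung. Cybb, the catalytic subunit of the phagocyte NADPH oxidase, differed by -1.89. The kinase Pik3cd differed by -1.39 and its second probe set by -1.41, and Slfn2 differed by -1.28 and its second probe set by -1.47.

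Of 1589 probe sets without a single gene symbol, 26 were at least 2-fold higher on the DBA smoked array and 57 at least 2-fold lower.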
